A study of Mus musculus with 18 samples.

Results

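Blood of irradiated mice was examined for 5 transcripts of stress metabolism: the sestrins Sesn1, Sesn2 and Sesn3, and Ddit4 and Gdf15. They were taken by gene name from the array's annotation, which gave 10 probes for the 5 genes among 41174 probes, controls left out. All 5 genes had a probe past the filter on low signals, as did 13398 genes in all. Sesn1 was chosen by its lower level in irradiated blood on these same arrays, so its differences between irradiated and unirradiated blood are given as a description, without a test. The other 4 genes were picked with earlier results of these arrays known. Blood came from 18 male C57BL/6N mice, 8 to 12 weeks old, 1 array per mouse. Mice were sham treated (0 Gy, n = 7) or given 2 Gy (n = 5) or 8 Gy (n = 6) of gamma rays from a cesium source, and whole blood was taken by cardiac puncture 6 hours later. RNA was purified with the RiboPure kit on 15 arrays and with the PAXgene kit on 3 (0 Gy replicates 6 and 7 and 2 Gy replicate 5), so all 8 Gy arrays were RiboPure. Globin RNA was removed in all samples.

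Sestrins are stress-induced proteins that restrain the growth kinase complex mTORC1: Sesn2 binds leucine and acts on the GATOR complexes, which control the Rag GTPases at the lysosome, and sestrins also support the regeneration of peroxiredoxins. Sesn1 and Sesn2 are known targets of p53, Sesn2 is also induced through ATF4 and NRF2, and Sesn3 through the FoxO factors. Ddit4 (REDD1) restrains mTORC1 through the TSC complex and responds to hypoxia, glucocorticoids and DNA damage. Gdf15 is a secreted stress cytokine of the TGF-beta superfamily that is induced by p53 and by ATF4 with Ddit3, and that acts on a receptor in the hindbrain to lower food intake.

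A level below is the log2 processed intensity minus the 75th percentile of its array, so that 0 is the intensity at that percentile. That percentile lay between 46.4 and 425 intensity units, and 15458 to 24450 probes an array were well above background. That percentile was 58.4 to 232 on the 8 Gy arrays, against 138 to 425 on the 0 Gy arrays. The array labelled 0 Gy replicate 5 stood apart from its group: its mean over 27 p53 targets other than the 5 genes was 1.33, against -0.32 to -0.10 on the other 0 Gy arrays and 1.28 to 1.81 on the 8 Gy arrays. Differences between doses that rest on it are given with and without it.

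The probes are shown because they read different stretches of the same genes. Genome positions come from the array files and refer to build mm7. The first Sesn1 probe gave the brightest signal and stood for the gene. It lies on chr10:41718855-41718914, and the capitals mark the polyadenylation hexamer in its last 30 bases. The second lies 903 bases upstream, on chr10:41717952-41718011, and 1 of its 3 forward frames holds no stop codon. The third is 60 bases long but spans chr10:41709061-41713223, 4163 bases, as a probe does that joins 2 exons.
A_51_P233954, last 30 bases: tatacagctccttaaagAATAAAgctggaa
A_52_P53596: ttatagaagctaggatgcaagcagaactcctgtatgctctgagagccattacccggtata
A_51_P266644: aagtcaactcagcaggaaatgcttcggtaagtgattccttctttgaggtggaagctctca

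The 2 Sesn2 probes lie on the minus strand. The brighter one, on chr4:131870492-131870551, is 884 genome bases downstream of the other, on chr4:131871376-131871435. They were designed to different transcript records, and whether the same transcript holds both was not looked up. Their first 30 bases are shown because their values differ below.
A_52_P154710, first 30 bases: gtggggaagggcatccagtgttaaagtgca
A_51_P161354, first 30 bases: agcccgtggtggtctccctgctgtctgaag

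Sesn1 was lower in irradiated blood at both doses. The 0 Gy arrays had levels of 3.54 to 4.87, with a median of 4.69. The 2 Gy arrays had 3.95, 4.24, 2.76, 3.69 and 4.02. The 8 Gy arrays had 3.00 to 4.17, with a median of 3.39. Of the 6 arrays at 8 Gy, 5 lay below every 0 Gy array, and the 0 Gy array with the lowest level was replicate 5. The group means were 4.47 ± 0.52 (SD, n = 7) at 0 Gy, 3.73 ± 0.58 (n = 5) at 2 Gy and 3.46 ± 0.39 (n = 6) at 8 Gy.

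With the extraction kit as a term, the log2 fold change of Sesn1 was -0.91 ± 0.29 (standard error) for 8 Gy against 0 Gy, a level 0.532 times that of unirradiated blood. For 2 Gy against 0 Gy it was -0.71 ± 0.29. Without 0 Gy replicate 5 these values were -1.09 ± 0.28 and -0.87 ± 0.28. Sesn1 did not differ beyond the spread between 8 Gy and 2 Gy (-0.20 ± 0.30, 95% interval -0.84 to 0.44, limma adjusted p = 0.939).

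**Figure D1:**
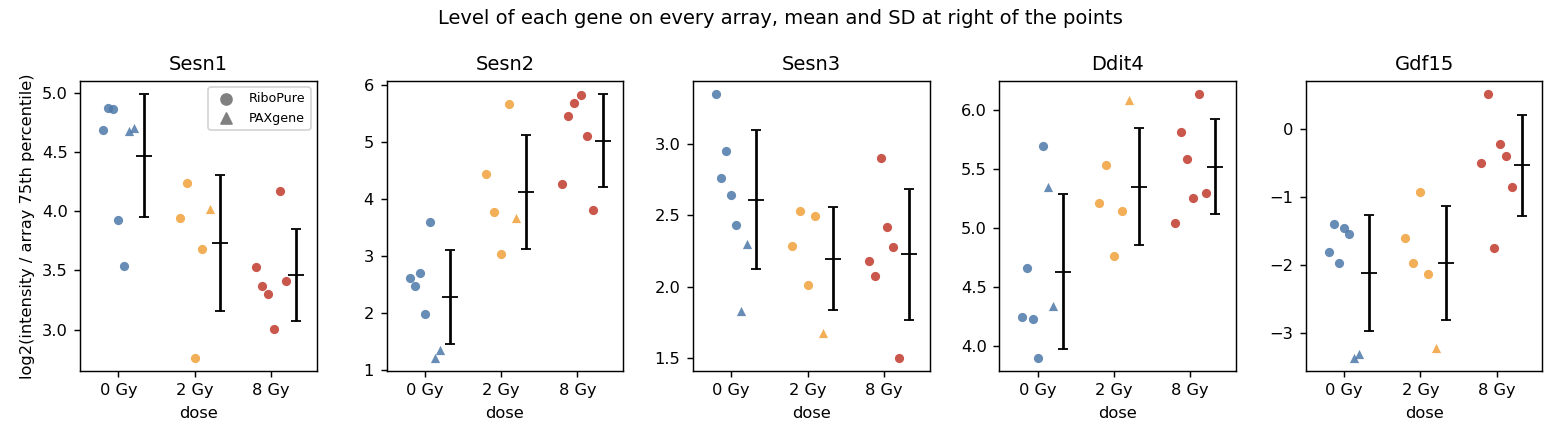
Level of each gene (log2 intensity relative to the array's 75th percentile, y axis) on every array by dose (x axis), with the group mean and SD beside the points and the kit by marker shape. Sesn1 lies between 3.00 and 4.17 at 8 Gy and on 5 of 7 arrays above that at 0 Gy, and the Sesn2 levels at 8 Gy all lie above those at 0 Gy.

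The other Sesn1 probes, read on the same arrays, were lower too, which is likewise a description. The probe A_52_P53596 had levels of -1.71 to 0.29 (median -0.73) at 8 Gy, against -0.84 to 1.26 (median 1.05) at 0 Gy, and its log2 fold change was -1.33 ± 0.48 at 8 Gy and -0.91 ± 0.48 at 2 Gy. The probe with the long genome span, A_51_P266644, had a log2 fold change of -1.35 ± 0.51 at 8 Gy and -1.30 ± 0.51 at 2 Gy. It was dim: 6 of 7 arrays at 0 Gy, 2 of 5 at 2 Gy and 2 of 6 at 8 Gy had it well above background. On each of these probes 3 of 6 arrays at 8 Gy lay below every 0 Gy array, so the groups overlap. Without 0 Gy replicate 5, all 6 did on each probe. Over 18 arrays, the brightest probe had a Pearson correlation of 0.85 with A_52_P53596 and of 0.79 with A_51_P266644, across arrays that share the difference between doses.

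**Figure D2:**
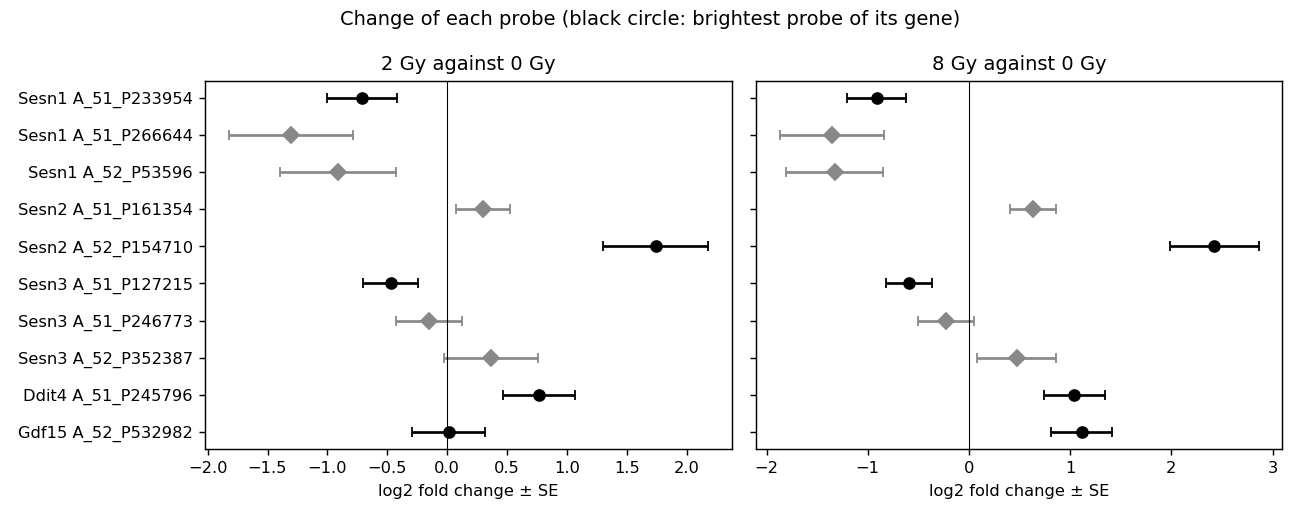
Log2 fold change with its standard error (x axis) of each of the 10 probes (rows) for 2 Gy against 0 Gy and 8 Gy against 0 Gy. The 3 Sesn1 probes lie below 0 in both panels, while the Sesn2 probes differ in size and the Sesn3 probes in sign.

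The Sesn1 levels are also described among arrays of the same slide. These are the arrays on which Sesn1 was chosen, so they add no separate support. Slides 1, 2, 4 and 5 each held 1 array at 0 Gy, which on slide 4 was replicate 5. On slide 1, the 2 arrays at 8 Gy averaged 3.15, against 4.69 on the 0 Gy array. On slides 2, 4 and 5, the 2 Gy arrays differed from the 0 Gy arrays by -0.78, -0.77 and -0.66. On slide 7, the 3 arrays at 8 Gy and the 2 Gy array averaged 3.69 and 3.69, a difference of 0.00.

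Whole blood mixes cell types, and markers of these moved with dose as well. Levels are relative to each array. A lower level can therefore come from fewer cells of a type, less RNA per cell or more RNA from other cells. These cannot be told apart here. Of 20 B cell markers, 18 fell at 8 Gy and 0 rose, with a median log2 fold change of -3.03. Tnfrsf13c, the BAFF receptor, fell by 4.50 ± 0.72 and Fcer2a (CD23) by 3.65 ± 0.55 (limma adjusted p = 0.00837 for both). Of 22 T cell markers, 1 fell, Cd8b1 by 1.31 ± 0.33 (adjusted p = 0.0258), with a median of -0.31. The median over all genes tested was 0.08, and 4.20% of them passed as lower and 7.45% as higher. The T cell count lies near the share that passed as lower. All 18 measured mature neutrophil markers rose, with a median of 2.35, among them Il1r2, a decoy receptor for interleukin 1, by 4.05 ± 0.76 (adjusted p = 0.00903). By limma, 0 of 13 NK cell and 0 of 13 monocyte markers passed (2 and 4 at an unadjusted p of 0.05, where 4432 of 13398 genes did). Leaving out 0 Gy replicate 5, 18 B cell markers fell and 1 rose, 1 T cell marker fell, and 18 neutrophil, 2 NK cell and 2 monocyte markers rose. In that fit 22.7% of all genes passed.

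The p53 targets other than the 5 genes moved the opposite way to Sesn1: 20 of 27 measured rose at 8 Gy, 0 fell, and the median was 1.54. Cdkn1a, the cell cycle inhibitor p21, rose by 3.41 ± 0.56, and Ccng1 (cyclin G1) by 2.19 ± 0.33 (adjusted p = 0.00837 for both). At 2 Gy 2 of 27 passed, with a median of 1.10, while 0.0522% of all genes passed. Without 0 Gy replicate 5 it was 19 of 27, against 6.78% of all genes. The B cell score, the mean over its 20 markers relative to the 0 Gy mean, had a range of -1.77 to 0.78 on the 0 Gy arrays, -3.56 to -1.69 on the 2 Gy arrays and -3.79 to -0.997 on the 8 Gy arrays. The lowest 0 Gy score, -1.77, was that of replicate 5. The T cell score lay between -0.87 and -0.25 on the 8 Gy arrays and between -0.82 and 0.55 on the 0 Gy arrays, and these ranges overlap. The part of cell composition in the Sesn1 difference was not tested.

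**Figure D3:**
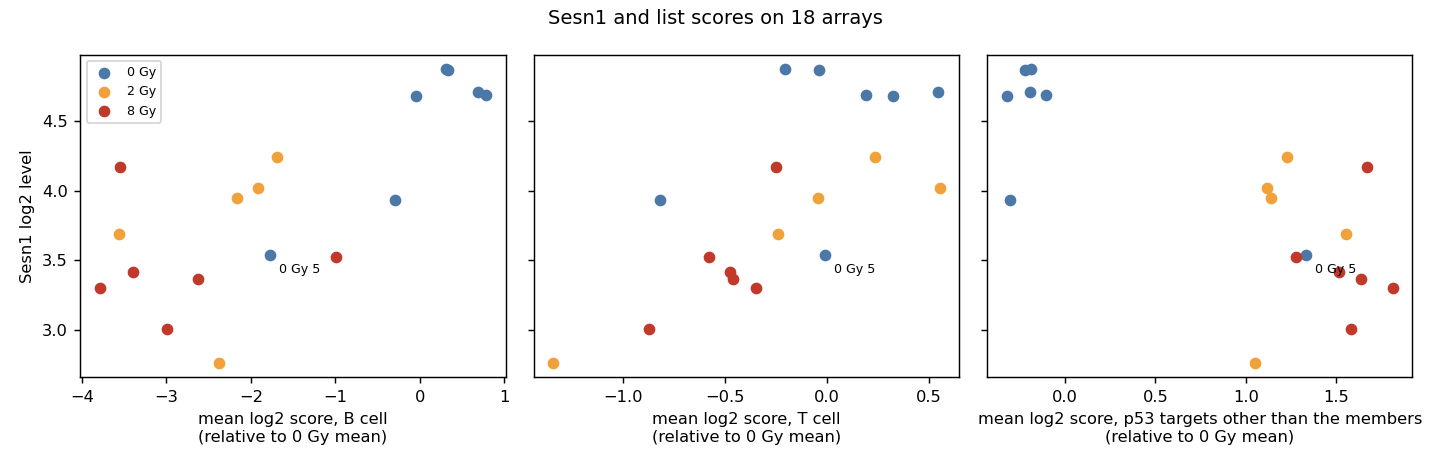
Sesn1 level (y axis) against the mean log2 score of the B cell markers, the T cell markers and the p53 targets (x axes, relative to the 0 Gy mean), 1 point an array, coloured by dose. The array labelled 0 Gy replicate 5 has a p53-target score of 1.33 and a Sesn1 level of 3.54, near the 8 Gy arrays.

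Within a dose, Sesn1 was set against 5 cell scores at 0 Gy and at 8 Gy, 10 relations in all. The largest was with B cells at 0 Gy (n = 7, Pearson r = 0.88, exact permutation p = 0.0153, adjusted p = 0.153; Spearman rho = 0.64, exact p = 0.139, adjusted p = 0.695). Leaving out the 2 arrays farthest from the median score gave r = -0.18 with the 75th percentile scale. It gave 0.63 with quantile normalization and 0.63 with the deposited table, so how far this relation rests on those arrays depends on the scaling. On the 75th percentile scale these arrays included 0 Gy replicate 5, and r without that array alone was not computed. With T cells at 8 Gy the relation had r = 0.75 (n = 6, exact permutation p = 0.122, adjusted p = 0.35; rho = 0.43, exact p = 0.419), and without the 2 farthest arrays r = -0.97. None of the 10 passed after adjustment.

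The windows from 250 bases before to 50 after the 2 annotated Sesn1 starts are shown because the gene is listed as a p53 target while its level was lower. They are RefSeq sequences on GRCm38.p6, on the plus strand, and 5 motifs were searched on both strands: the p53 half-site, GTAAACA (FoxO), TGATGNAA (ATF4 composite), ACGTG (hypoxia response) and the glucocorticoid response element. Matches of different motifs did not overlap. Capitals mark the matches. The upstream window held a FoxO letter match on the opposite strand, from 22 bases past the start, and the downstream one a p53 half-site; 3.65% and 8.36% of 32851 promoter windows held these.
chr10:41810324-41810623: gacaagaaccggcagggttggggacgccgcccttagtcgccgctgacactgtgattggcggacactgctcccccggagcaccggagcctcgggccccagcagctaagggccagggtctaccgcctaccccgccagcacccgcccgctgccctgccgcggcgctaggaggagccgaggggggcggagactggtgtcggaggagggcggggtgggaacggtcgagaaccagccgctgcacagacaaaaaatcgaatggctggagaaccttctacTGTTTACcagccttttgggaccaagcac
chr10:41887189-41887488: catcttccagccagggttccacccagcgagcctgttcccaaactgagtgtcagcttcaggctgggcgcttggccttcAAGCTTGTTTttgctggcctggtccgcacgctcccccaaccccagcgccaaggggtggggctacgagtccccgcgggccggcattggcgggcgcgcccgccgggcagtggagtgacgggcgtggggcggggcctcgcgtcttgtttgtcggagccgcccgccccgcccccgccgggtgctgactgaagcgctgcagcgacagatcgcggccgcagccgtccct
The Sesn2 and Sesn3 windows held none of the 5 motifs, and Ddit4 and 1 of the 2 Gdf15 windows held ACGTG, as did 19.6% of all windows. A match says only that the letters are there, and the lack of one says nothing of the factor.

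Sesn2, the leucine-binding sestrin, rose at 8 Gy. Its levels were 3.80 to 5.81 (median 5.28) at 8 Gy, against 1.22 to 3.59 (median 2.47) at 0 Gy, and the groups did not overlap. Among all genes tested, 1.66% had groups that did not overlap in this comparison. The 2 Gy arrays had 4.44, 3.77, 3.03, 5.66 and 3.66, and 4 of these 5 lay above every 0 Gy array. The means were 2.28 ± 0.83 (SD, n = 7) at 0 Gy, 4.11 ± 1.00 (n = 5) at 2 Gy and 5.02 ± 0.82 (n = 6) at 8 Gy. At 8 Gy the log2 fold change was 2.42 ± 0.44, or 5.37-fold (95% interval 2.83 to 10.2, limma adjusted p = 0.00886). At 2 Gy it was 1.74 ± 0.44 (adjusted p = 0.0856), and without 0 Gy replicate 5 it was 1.93 ± 0.44 (adjusted p = 0.0205). The call at 8 Gy was lost with the slide as a fixed block (1.98 ± 0.70, adjusted p = 0.568), with the scan day (1.77, adjusted p = 0.246) and with the array's brightness as a covariate (2.16, adjusted p = 0.150); in these 3 fits 0 of 13398 genes passed, while 1143, 2486 and 1798 did at an unadjusted p of 0.05.

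The other Sesn2 probe, A_51_P161354, moved less: its log2 fold change at 8 Gy was 0.63 ± 0.22 (adjusted p = 0.0696 when read in place of the brighter probe). Its levels were 1.56 to 2.47 at 8 Gy and 1.19 to 1.86 at 0 Gy, with 5 of 6 arrays at 8 Gy above every 0 Gy array. The difference between the 2 probes was 2.86 ± 0.66 at 8 Gy and 0.74 ± 0.94 at 0 Gy (SD). These means leave the kit out, and 2 of the 7 arrays at 0 Gy and none at 8 Gy were PAXgene. The pair was singled out after its values were seen, so its difference is a description and no test of it is given. Within slides, the brighter Sesn2 probe was higher by 3.12 at 8 Gy than at 0 Gy on slide 1, and by 1.64 and 2.44 at 2 Gy on slides 2 and 5. On slide 4, where the 0 Gy array is replicate 5, it differed by -0.56, and on slide 7 by -0.72 at 8 Gy against 2 Gy.

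Sesn3, the sestrin under FoxO control, had levels of 1.504 to 2.90 (median 2.23) at 8 Gy, against 1.83 to 3.35 (median 2.64) at 0 Gy. The ranges overlap widely, and the 2 Gy arrays had 2.28, 2.53, 2.01, 2.49 and 1.67. Its log2 fold change was -0.59 ± 0.22 at 8 Gy (adjusted p = 0.0831) and -0.47 ± 0.22 at 2 Gy (adjusted p = 0.244), neither past the threshold. It passed at 8 Gy in 5 of 36 alternatives, among them without 0 Gy replicate 5 (-0.67 ± 0.23, adjusted p = 0.0481) and with quantile normalization (-0.73, adjusted p = 0.0477). The 3 probes did not move together: A_51_P246773 had -0.23 ± 0.28 (adjusted p = 0.588) and A_52_P352387, designed to an unclassified cDNA, 0.47 ± 0.39 (adjusted p = 0.416), so the sign depends on the probe.

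Ddit4, the inhibitor of mTORC1 upstream of the TSC complex, rose at 8 Gy. Its levels were 5.04 to 6.14 (median 5.44) at 8 Gy, against 3.90 to 5.70 (median 4.34) at 0 Gy, with 2 of 6 arrays at 8 Gy above every 0 Gy array. The 0 Gy array with the highest level was replicate 5. The 2 Gy arrays had 5.21, 5.54, 4.76, 5.15 and 6.09. The log2 fold change was 1.04 ± 0.30 at 8 Gy, or 2.06-fold (95% interval 1.32 to 3.19, adjusted p = 0.0399), and 0.76 ± 0.30 at 2 Gy (adjusted p = 0.185). With 0 Gy replicate 5 left out, it was 1.31 ± 0.25 at 8 Gy (adjusted p = 0.00326) and 0.99 ± 0.25 at 2 Gy (adjusted p = 0.0292). The call at 8 Gy was kept in 11 of 36 alternatives, all of which gave a positive value, and with quantile normalization it was 0.64 ± 0.26 (adjusted p = 0.111).

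Gdf15, the secreted stress cytokine, rose at 8 Gy and also differed between PAXgene and RiboPure arrays. Its levels were -1.74 to 0.52 (median -0.45) at 8 Gy, against -3.35 to -1.39 (median -1.81) at 0 Gy, and 5 of 6 arrays at 8 Gy lay above every 0 Gy array. The 2 Gy arrays had -1.59, -1.96, -0.91, -2.13 and -3.21. Its probe was above the scanner software's background call on 6 of 7 arrays at 0 Gy, 3 of 5 at 2 Gy and 6 of 6 at 8 Gy. The log2 fold change was 1.11 ± 0.30 at 8 Gy, or 2.16-fold (95% interval 1.39 to 3.37, adjusted p = 0.0346), and 0.01 ± 0.30 at 2 Gy (adjusted p = 0.986). Between 8 Gy and 2 Gy it was 1.10 ± 0.32 (adjusted p = 0.928, unadjusted p = 0.00317), and on slide 7 the difference was 2.00. The slide 7 value rests on 1 array at 2 Gy, replicate 4, where the probe did not reach the background call (intensity 10.6). The 75th percentile of that array, 46.4, was the lowest of all. The call at 8 Gy was kept in 17 of 35 alternatives.

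The 3 PAXgene arrays had Gdf15 levels of -3.35 to -3.21, against -2.13 to 0.52 on the 15 RiboPure arrays. On PAXgene arrays 0 Gy replicate 7 and 2 Gy replicate 5 the probe did not reach the background call (intensities 22.7 and 12.0). On the other PAXgene array, 0 Gy replicate 6, it read 18.5. The size of the kit difference below therefore rests on values near background. The PAXgene arrays were on slides 5 and 6, which held no RiboPure array and were scanned on days of their own. A kit difference therefore cannot be told apart from one of slide or scan day. With dose in the model, the kit difference was -1.65 ± 0.35 (limma adjusted p = 0.0168), and 1 of 5 genes passed in this contrast, where 3.52% of all genes did. With RiboPure arrays alone, the 8 Gy difference was 1.10 ± 0.34 (adjusted p = 0.0775). The kit differences of the other genes did not pass: Sesn2 -1.09 ± 0.50 (adjusted p = 0.240), Sesn3 -0.72 ± 0.25 (0.123), Ddit4 0.52 ± 0.34 (0.432) and Sesn1 0.33 ± 0.33 (0.628).

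At 8 Gy, 3 of the 4 genes other than Sesn1 passed an adjusted p of 0.05, all higher, while 11.7% of all genes tested passed (7.45% higher and 4.20% lower). The 4 genes were picked with earlier results of these arrays known, so their counts here are a description and no excess is claimed. All 4 passed without 0 Gy replicate 5, against 22.7% of all genes. At 2 Gy none of the 4 passed and 0.0522% of all genes did; at an unadjusted p of 0.05, 3 of the 4 passed, against 20.4% of all genes. Sesn2 and Ddit4 passed at 2 Gy without that array, against 6.78% of all genes. Between 8 Gy and 2 Gy no gene passed limma's test, and 418 did at an unadjusted p of 0.05 (3.12%), Gdf15 among the 5. The comparisons of 8 Gy and of 2 Gy with 0 Gy share their 0 Gy arrays.

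**Figure D4:**
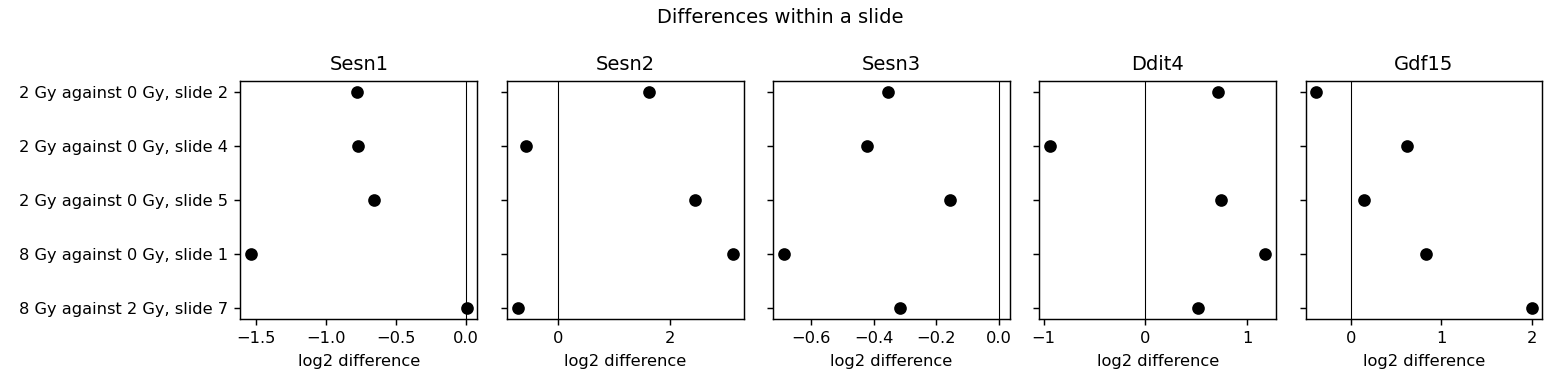
Difference in log2 level (x axis) between doses on arrays of the same slide (rows) for each gene. Sesn1 is lower at 2 Gy than at 0 Gy on slides 2, 4 and 5 and lower at 8 Gy on slide 1, and Sesn2 and Ddit4 are also lower at 2 Gy on slide 4, whose 0 Gy array is replicate 5, but higher on slides 2 and 5.

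Genes of the pathways around these 5 were counted in lists, beside 7.45% of all genes higher and 4.20% lower at 8 Gy. The counts of the first 2 lists lie near these shares. Of 23 measured genes of the GATOR complexes, Rag GTPases and their lysosomal scaffold, 1 fell at 8 Gy and 0 rose, with a median of 0.07: Mios, a GATOR2 subunit, fell by 0.67 ± 0.20 (adjusted p = 0.0413). Of 27 genes of the mTOR complexes, TSC and AMPK, 2 rose and 2 fell (median -0.01). Eif4ebp1, a translation repressor that mTORC1 phosphorylates, rose by 1.06 ± 0.30, and the autophagy kinase Ulk1 by 0.73 ± 0.22 (adjusted p = 0.0362 and 0.0454). Mlst8, a subunit of both mTOR complexes, fell by 0.83 ± 0.23 (adjusted p = 0.0353). Prr5, an mTORC2 subunit, reached the background call on none of the 6 arrays at 8 Gy, against 6 of 7 at 0 Gy. Its level was at least 5.16-fold lower at 8 Gy. No 2 Gy array reached the call either, so Prr5 passed the filter only through the 0 Gy arrays, where it is high. The lower count of this list includes it, and its difference is given as a description.

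Of 22 FoxO factors and FoxO targets, 2 rose and 3 fell (median 0.33). Foxo1 itself fell by 1.28 ± 0.25, and the lymphocyte homing receptors Ccr7 and S1pr1 by 1.51 ± 0.31 and 1.22 ± 0.31, while Trib1 and the autophagy gene Gabarapl1 rose by 1.47 ± 0.32 and 0.80 ± 0.19 (adjusted p 0.0108 to 0.0265). Of 26 ATF4 targets and unfolded protein response genes, 4 rose and 1 fell (median 0.09). Chac1, a glutathione-degrading enzyme, rose by 1.99 ± 0.40 and Ddit3 (CHOP) by 1.01 ± 0.29, and Eif2ak4, the amino acid sensor GCN2, fell by 1.34 ± 0.33 (adjusted p = 0.0114, 0.0397 and 0.0249).

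Of 15 peroxiredoxin and thioredoxin system genes, 6 rose and 0 fell (median 0.66): Prdx2, an abundant peroxidase of red cells, rose by 1.21 ± 0.29 and Nfe2l2, the factor NRF2, by 0.99 ± 0.27 (adjusted p = 0.0223 and 0.0358). Of 19 hypoxia response genes, 3 rose and 0 fell (median 0.38), among them Egln3, an oxygen-sensing hydroxylase, by 1.59 ± 0.30 (adjusted p = 0.00940). Of 16 glucocorticoid response genes, 3 rose and 0 fell (median 0.34), among them Cebpd by 2.00 ± 0.47 and Il1r2, which is also on the neutrophil list (adjusted p = 0.0217 and 0.00903). At 2 Gy 0 of the 145 genes of these 7 lists passed by limma, and 35 did at an unadjusted p of 0.05, where 20.4% of all genes did. With 0 Gy replicate 5 left out, where 22.7% of all genes passed, the counts at 8 Gy were 1 higher and 3 lower for GATOR and Rag, 4 and 2 for mTOR, TSC and AMPK, 5 and 3 for FoxO, and 5 and 1 for ATF4. They were 7 and 0 for peroxiredoxins, and 6 and 0 for both hypoxia and glucocorticoids. These lists were compared by count and median, and no list was tested.

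**Figure D5:**
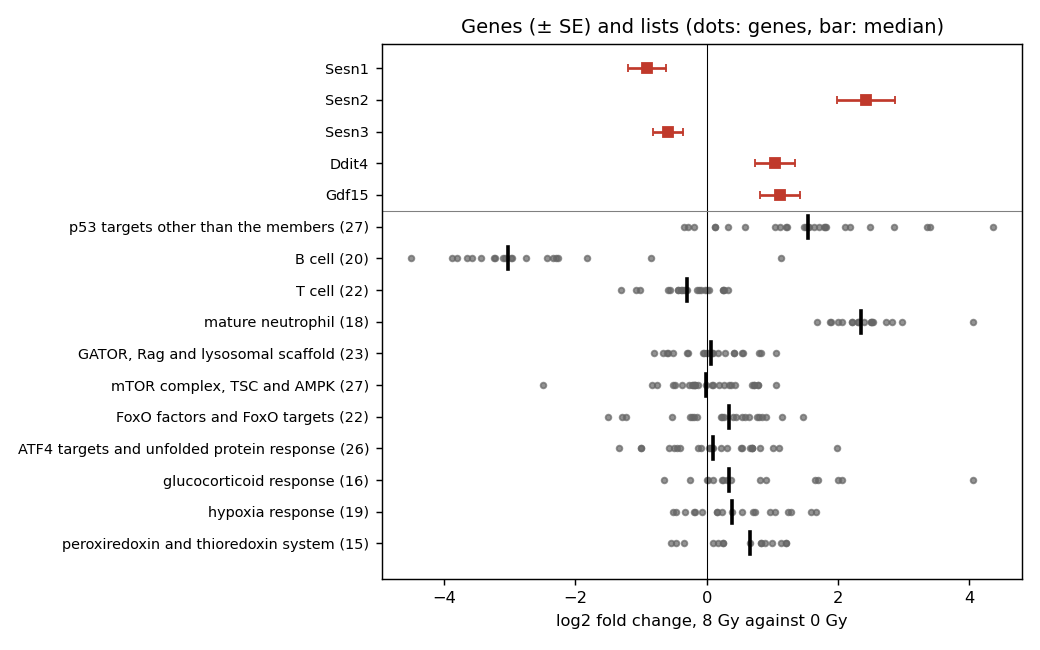
Log2 fold change for 8 Gy against 0 Gy (x axis) of the 5 genes with their standard errors (red squares, top) and of the genes of each list (grey dots, number of measured genes in brackets, black bar the median). The B cell markers have a median of -3.03 and the p53 targets of 1.54, with Sesn1 at -0.91 and Sesn2 at 2.42.

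Over the 18 arrays, among the genes whose levels were most like Sesn1 were Lrmp, a lymphoid-restricted membrane protein (Pearson r = 0.95), Tcf3, the E2A factor of lymphocytes (0.95), Ets1 (0.95), Gimap1, a GTPase of lymphocytes (0.94), and Rhobtb2 (0.93). Of all genes tested, 1% had an r above 0.83 with Sesn1. For Sesn2 these included Mdm2, the p53 ubiquitin ligase (0.96), Pgs1 (0.95) and Aatk (0.95), for Ddit4 Plod2 (0.92), Gm4827 (0.89) and Bbc3, the p53 target PUMA (0.88). For Sesn3 these included Tut4 (0.93), Cnot2 (0.93) and Mrgbp (0.92), and for Gdf15 1200016E24Rik and Pigg (0.85 each). Among the 5 genes, Sesn1 had r = -0.63 with Sesn2, -0.58 with Gdf15, -0.36 with Ddit4 and 0.36 with Sesn3, and Sesn2 had r = 0.60 with Ddit4 and 0.59 with Gdf15. These values describe 18 arrays that share doses, kits and brightness differences.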

How the data were processed

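Blood RNA of 18 mice was measured on Agilent 1-colour arrays, labelled with Cy3, per the labels. The intensity values deposited by the authors were made with Agilent Feature Extraction 9.5.3.1, per the file headers. Spot values marked as outliers, 45 in all, were left out. The log2 intensity was reduced by the 75th percentile of each array. A probe was kept if the scanner software called it well above background on 5 or more of the 18 arrays (22038 probes, 13398 genes), and the brightest probe stood for its gene. A linear model of dose and kit, over the 18 arrays, was fitted by limma 3.58.1 (R 4.3.3), p was adjusted by Benjamini-Hochberg over all genes, and the threshold was 0.05. No value is counted data, so the number of arrays limits precision.

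The deposited table of the series holds intensity on a linear scale with a median of 20.7 in each column; the steps that made it, and the role of limma named in the submitters' processing notes, are not given in the sources used here. It served as an alternative. The design text names cesium-138 where the labels give cesium-137.

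The genes and gene lists were chosen with earlier results of these data known. Genes named are the 5 genes, up to 4 genes of each list with the smallest p at 8 Gy, and the genes most correlated with each of the 5; some genes that this rule names are not reported here. S1pr1 was named to complete a count after its value was seen. Where no array of a group was well above background, the fold is a bound. On simulated data (13398 genes), 72 of 92 genes changed by 2 on the log2 scale and 30 of 108 changed by 1 were called for 8 Gy against 0 Gy. No other gene was changed there, and the noise was independent between genes and arrays. In the data 1561 genes were called, and the adjustment depends on that number, so these shares do not carry over to the data.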

Additional observations from a re-analysis of the deposited data

How the results depend on the processing

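Of 36 alternatives, Sesn1 was lower in all, by -1.23 to -0.80 at 8 Gy and by -0.98 to -0.49 at 2 Gy. These fits reuse the arrays on which Sesn1 was chosen. Leaving out 1 array gave -1.09 to -0.80 and -0.87 to -0.49, and probe A_51_P266644 gave -1.30 at 2 Gy. The count of genes other than Sesn1 past the threshold at 8 Gy was 3 (Sesn2, Ddit4 and Gdf15). With quantile normalization, normexp and the deposited table the 3 were Sesn2, Gdf15 and Sesn3. With the 75th percentile of probes well above background on all arrays they were Sesn2, Ddit4 and Sesn3. In these fits Sesn3 was lower. The count was 2 without the kit term, where Ddit4 was lost, and 2 with the filter at all 18 arrays, where Gdf15 was lost. It was 1 (Sesn2) with the array's median as the scale, no filter, RiboPure arrays alone, only the groups compared, the slide as a random block and the replicate block (where numbers do not pair the mice: deviations of 16 same-numbered pairs correlated with r of -0.34 to 0.48). It was 0 with fixed blocks for slide or scan day and with array brightness as a covariate, and 1 to 4 when 1 array was left out, 1 without 0 Gy replicate 1, 2 or 3, 2 Gy replicate 5, or 8 Gy replicate 2, 4, 5 or 6. At 2 Gy the count was 0, and 0 to 2 when 1 array was left out: 2 without 0 Gy replicate 5 and 1 without 2 Gy replicate 3. Between 8 Gy and 2 Gy it was 0 in all 36. Between kits it was 1 (Gdf15) and 0 with normexp, with the filter at all 18 arrays and with the replicate block. It was 0 to 1 when 1 array was left out, 0 without 0 Gy replicate 6 or 2 Gy replicate 5. With fixed blocks for slide or scan day the kit difference could not be estimated. The PAXgene arrays share no slide or scan day with RiboPure arrays. Sesn3 read with A_52_P352387 reversed to 0.47 at 8 Gy and 0.36 at 2 Gy. The cause of these changes was not tested. The relations of Sesn1 with cell scores gave 0 of 10 past the threshold with quantile normalization and with the deposited table as well. Scaling by the 75th percentile of probes well above background on all arrays moved the median over all genes at 8 Gy to -0.11, against 0.08, and the share of higher among called genes to 37.6%, against 63.9%; with quantile normalization it was 45.8% and with normexp 39.5%. The number of all genes called at 8 Gy was 1561, and 457 with the median scale, 551 with no filter, 278 with RiboPure arrays alone, 777 with only the groups compared, 583 with the random slide block and 240 with the replicate block, and 269 to 3041 when 1 array was left out. At 2 Gy it was 7, and 41 with quantile normalization, 159 with normexp, 70 with the replicate block, and 0 to 908 when 1 array was left out. Dim probes limit A_51_P266644 and Gdf15.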

Other observations

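Platelet and red cell genes were read on the same arrays. Of 15 platelet markers, 4 rose at 8 Gy and 0 fell, with a median log2 fold change of 1.04, among them the chemokine Pf4 by 1.05 ± 0.30 (limma adjusted p = 0.0395). Of 16 erythroid markers, 1 rose, Tal1, a factor of the erythroid lineage, by 1.17 ± 0.35 (adjusted p = 0.0432), with a median of 0.85. The erythroid count lies near the 7.45% of all genes that passed as higher. Without 0 Gy replicate 5 the counts were 14 of 15 platelet and 6 of 16 erythroid markers, where 22.7% of all genes passed.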
